A study of Mus musculus with 12 samples.

Results

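Livers of STAM mice treated with I-BET151 were compared with livers of STAM mice given vehicle, by RNA-seq of 1 liver per mouse. The comparison takes the 4 I-BET151 and the 4 vehicle mice out of 12 in the series, and 16823 of the 47729 genes counted had enough counts to be tested. STAM mice are male C57BL/6 mice that receive streptozotocin, a toxin of the insulin-producing beta cells, on day 2 after birth and a high-fat diet from week 4, and they develop diabetes with steatohepatitis. Both STAM groups therefore carry the toxin and the diet, and they were dosed from week 6 until the livers were taken at week 9. The treated mice received 10 mg/kg I-BET151 by mouth once daily in a suspension of hydroxypropyl methylcellulose with a polysorbate surfactant, whereas the methods give methylcellulose as the vehicle, so that the compound and its formulation cannot be told apart in this comparison. The remaining 4 mice were healthy wild-type controls, which the labels list as given vehicle. They enter the count filter, the scaling of the libraries and the estimate of the spread between mice, but not the contrast. Their values are given beside the others as a description. Each mouse was a separate library.

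I-BET151 is a small-molecule inhibitor of the BET proteins, among them BRD2, BRD3 and BRDT. The BET proteins bind acetylated lysines on histones through their bromodomains and recruit the elongation factor P-TEFb, which releases paused RNA polymerase II. In liver, interferons induce antiviral genes through STAT and IRF factors, and the cholesterol pathway is driven by the transcription factor SREBP2 when sterols are low.

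The libraries held from 34711229 to 53365596 counts on genes in the 8 STAM mice. CPM is the count scaled to the library size after TMM, and log2 fold changes are of I-BET151 against vehicle on the scale of the fit. Hepatocyte markers were abundant, with albumin (Alb) at 29930 to 55000 CPM in vehicle mice. I-BET151 mouse 3 stood apart from the 3 other I-BET151 mice. Its 10 largest genes took 7.95% of the reads against 16.4% to 17.6%, its mitochondrial share was 2.71% against 5.95% to 7.05%, and its TMM factor was 1.61 against 0.944 to 1.04. A group of 5 nuclear-retained RNAs took 0.783% of its reads against 0.111% to 0.164%, and the summed CPM of the 5 hepatocyte markers was 19234 against 68952 to 84714. The study removed an I-BET151 sample with few gene counts and does not say which. Mouse 3 had the lowest total count of the I-BET151 mice, 34711229, but mouse 2 was close to it at 35171038. Mouse 3 also had the most genes with a count, 24304 against 22293 to 23372 in the other I-BET151 mice. Whether mouse 3 was the sample that the study removed is therefore not known. Counts of genes are given with all mice and without mouse 3, and so are the genes that rest on it. The part of the library composition of mouse 3 in the results was not tested.

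**Figure D1:**
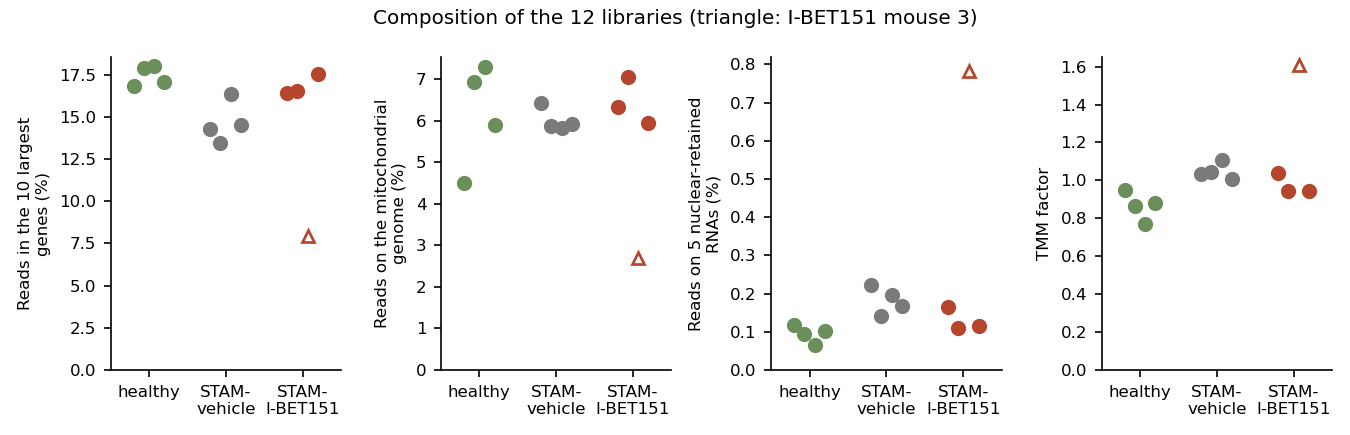
Composition of the 12 libraries, with 1 point per mouse in each of the 3 groups. The panels give the share of reads in the 10 largest genes, on the mitochondrial genome and on 5 nuclear-retained RNAs (in percent) and the TMM factor. I-BET151 mouse 3, the open triangle, lies at 7.95%, 2.71%, 0.783% and 1.61, outside the range of the other 11 mice in each panel.

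With all mice, 16 genes rose and 43 fell at an FDR-adjusted p threshold of 0.1. The test was edgeR's quasi-likelihood test, and SE is the standard error of the log2 fold change. This was 0.351% of the genes tested, 0.0951% higher and 0.256% lower. The 16 that rose were led by the histone gene Hist1h4h, and the 43 that fell held 8 antiviral interferon effectors and 8 enzymes of cholesterol synthesis. In each of the 59 genes the 4 I-BET151 mice did not overlap with the 4 vehicle mice. Over all genes tested, 2.41% lay higher without overlap and 2.63% lower. Without mouse 3, 155 genes rose and 248 fell among 16967 tested, which was 2.38% (0.914% higher and 1.46% lower), and the 59 were called again with the same sign. The median log2 fold change over all genes was 0.024 with all mice and 0.0042 without mouse 3. With all mice in edgeR, 1460 of the 16823 genes tested were at an unadjusted p under 0.05. Over all genes, DESeq2 called 94 as higher and 174 as lower, and limma-voom 520 and 685. Counts of list members given below are to be read beside these totals.

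**Figure D2:**
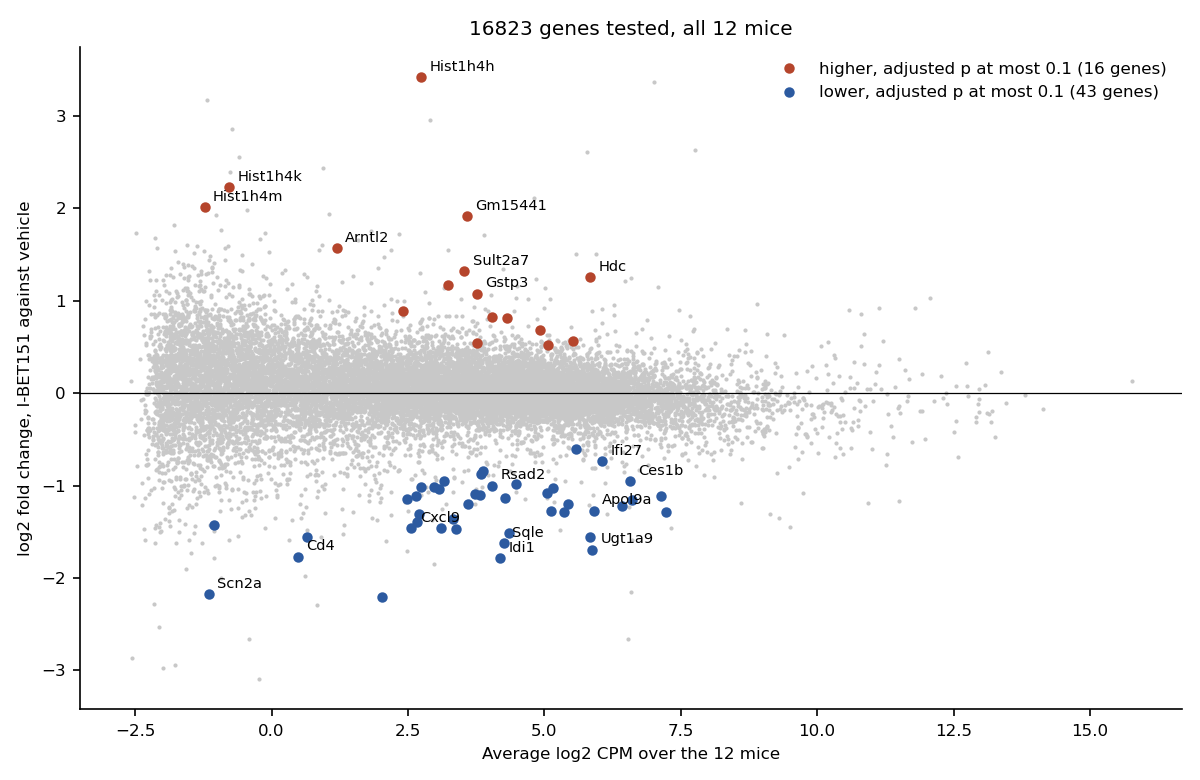
log2 fold change of I-BET151 against vehicle (vertical axis) and average log2 CPM over the 12 mice (horizontal axis) for the 16823 genes tested, 1 point per gene. The 16 genes that rose are red and the 43 that fell are blue. Hist1h4h has the largest called increase at 3.42, ENSMUSG00000104475 the largest called decrease at -2.21 and Bag3 the smallest at -0.61.

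In each of the 12 fits that left out a mouse the 59 genes kept at least 69.5% of their log2 fold change, but many no longer passed. Their direction held in each fit, which was largely fixed beforehand, because the 2 groups did not overlap in any of these genes. The fit lost 46 of the 59 calls without I-BET151 mouse 1 and 46 without vehicle mouse 4, 38 without vehicle mouse 2, 30 without I-BET151 mouse 4, 23 without vehicle mouse 1, 17 without vehicle mouse 3 and 4 without I-BET151 mouse 2, and from 8 to 16 without 1 of the healthy mice. Without mouse 3 of the I-BET151 group 0 calls were lost. The 11 genes called in each of the 12 fits that left out a mouse included Hist1h4h, Adra1a, Apol9a, Apol9b, Ifit1, Rsad2, Usp18, Tgtp1, Nsdhl and the unnamed transcript 4732465J04Rik. The sequencing lane was shared by 1 vehicle and 1 I-BET151 mouse in 3 lanes. With lane as a covariate 0 genes passed in edgeR's quasi-likelihood test, with 1485 at an unadjusted p under 0.05 against 1460 without the covariate. The lane fit left 4 residual degrees of freedom.

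Antiviral effectors of the interferon response fell, with 8 of the 43 decreases. Of 28 on the list 27 were tested, 8 fell, against 0.256% of all genes, and 26 had a lower mean. The median log2 fold change was -0.78. Without mouse 3, 19 of the 27 fell, against 1.46% of all genes, and the median was -1.06. The number that fell was 3 without vehicle mouse 4, and 4 without I-BET151 mouse 1, I-BET151 mouse 4 or vehicle mouse 2. It was 3 with the 8 STAM mice alone, 3 with a replicate block and 0 with lane as a covariate. DESeq2 called 14 and limma-voom 23, against 174 and 685 of all genes as lower. Rsad2 encodes viperin, which makes a chain-terminating nucleotide that blocks viral replication. It is ENSMUSG00000020641, chr12:26442746-26456452 of GRCm38, and had 24.7, 21.7, 20.1 and 25.8 CPM in vehicle mice 1 to 4 and 11.5, 11.99, 11.5 and 11.2 in I-BET151 mice 1 to 4. The treated mice were within 1 CPM of each other and the groups were well apart (log2 fold change -1.001, SE 0.13, adjusted p = 0.0186). Its neighbour Cmpk2, a mitochondrial nucleotide kinase, had 7.57, 8.67, 8.39 and 10.8 CPM against 4.45, 3.55, 5.504 and 4.02 (log2 fold change -1.01, SE 0.17, adjusted p = 0.0426).

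Usp18, the protease that removes ISG15 from its targets and damps the interferon receptor, had 30.8, 28.4, 32.3 and 36.4 CPM in vehicle and 12.2, 17.4, 16.6 and 12.2 in treated mice (log2 fold change -1.13, SE 0.16, adjusted p = 0.0186). Isg15, the ubiquitin-like modifier itself, had 8.53, 7.85, 11.5 and 11.6 CPM and 5.39, 3.95, 4.63 and 4.23 CPM (log2 fold change -1.12, SE 0.19, adjusted p = 0.0375). Every treated mouse lay below every vehicle mouse in both genes. Ifit1, which binds viral RNA lacking a host-type cap, had 11.6, 16.7, 16.8 and 19.1 CPM against 5.098, 7.65, 5.65 and 4.89 (log2 fold change -1.47, SE 0.21, adjusted p = 0.0193). Ifit3b fell by 1.14 on the log2 scale (adjusted p = 0.052), Ifi27 by a log2 fold change of 0.74 (adjusted p = 0.0763) and Rtp4 by 0.88 (adjusted p = 0.0865). The sequence of Ifit3b is close to that of Ifit3 (log2 fold change -1.01, adjusted p = 0.155). The methods give uniquely mapped reads as the input to counting, so reads that fit both may be missing. Healthy mice had 11.4 to 17.2 CPM of Rsad2, 9.603 to 13.7 of Usp18 and 7.19 to 12.6 of Ifit1.

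Other members of the list were divided by I-BET151 mouse 3. Mx1, a dynamin-like GTPase against influenza viruses, had 4.66, 5.09, 6.04 and 6.45 CPM in vehicle mice and 2.14, 1.29, 8.43 and 2.25 in I-BET151 mice 1 to 4, so that mouse 3 was the highest of the 8. Its log2 fold change was -0.64 (adjusted p = 0.74) with all mice and -1.53 (adjusted p = 0.00689) without mouse 3. The oligoadenylate synthetase gene Oas2, which activates RNase L, had 18.6, 15.6, 23 and 20.5 CPM against 9.67, 5.27, 32.4 and 7.61, again with mouse 3 above the vehicle mice, and a log2 fold change of -1.35 (adjusted p = 0.0281) without it. Xaf1 and Oasl2 had the same order, with 18.4 and 24.3 CPM in mouse 3 against 5.0 to 8.29 and 6.84 to 11.5 in the other treated mice. Oasl1 had 26.4, 25.3, 22.9 and 28.4 CPM in vehicle and 10.8, 15.8, 21.4 and 11.7 in treated mice (log2 fold change -0.78, adjusted p = 0.141, with all mice and -1.003, adjusted p = 0.00657, without mouse 3). In Rsad2, Cmpk2, Isg15 and Ifit1 mouse 3 lay with the treated group. These genes were called with all mice, and no gene so called had overlapping groups. The genes with a high mouse 3 were chosen after their values were seen, so the difference between these sets is a description. The mean log2 CPM of the 27 genes was 3.59 to 3.98 in vehicle mice, 2.603 to 2.99 in the 3 other treated mice and 3.52 in mouse 3.

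**Figure D3:**
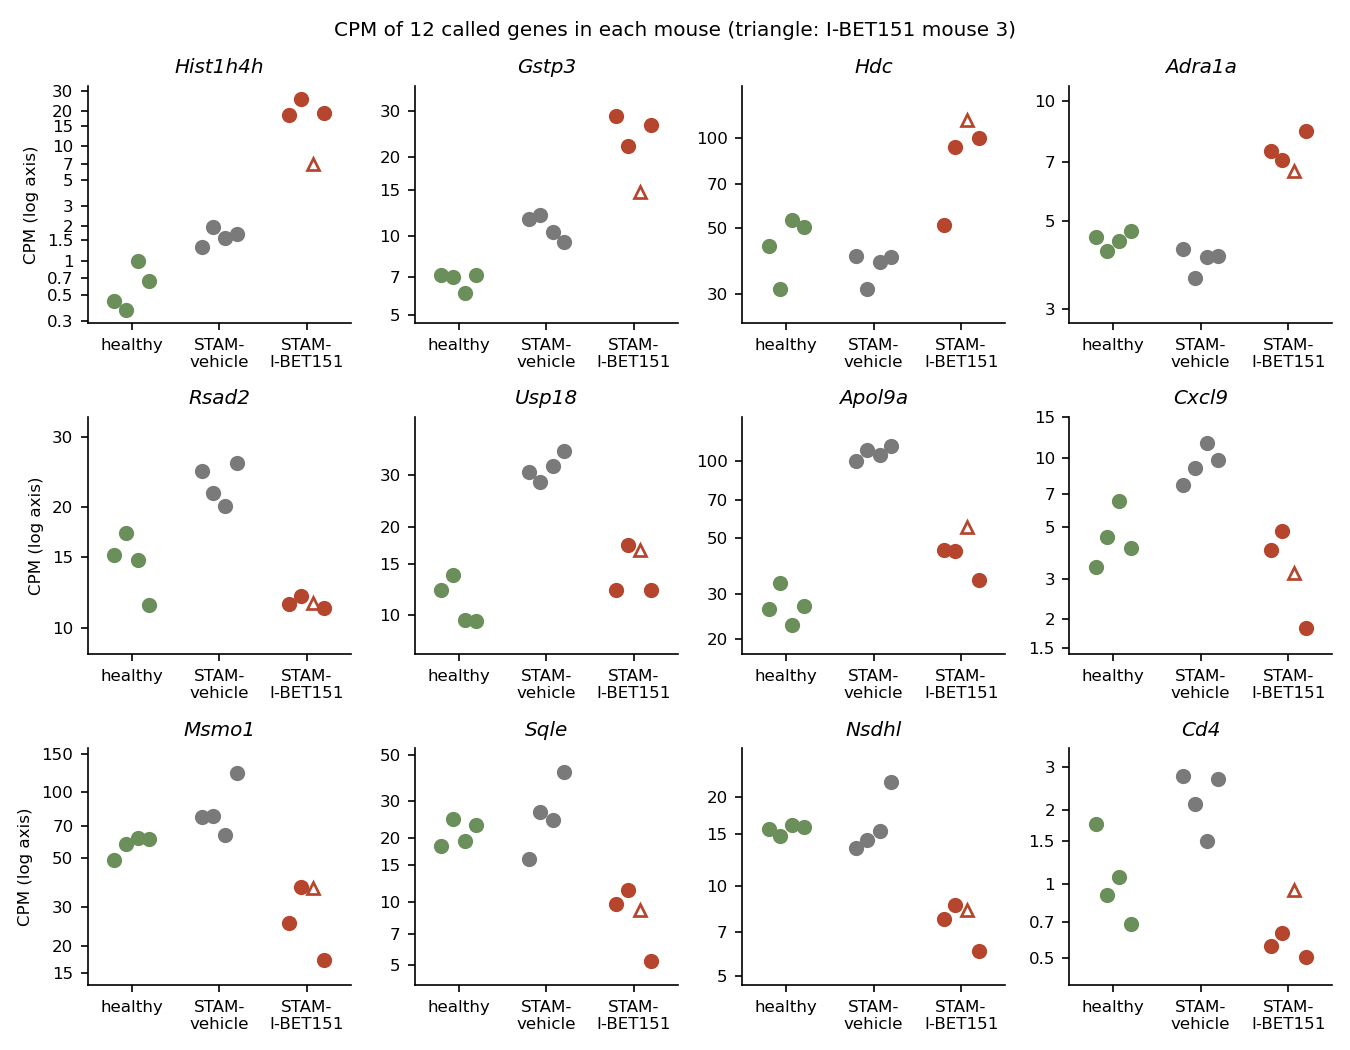
CPM on a log axis for 12 called genes in each of the 12 mice, by group, with I-BET151 mouse 3 as an open triangle. The upper row shows genes that rose (Hist1h4h from 1.32 to 1.94 CPM in vehicle mice and 6.96 to 25.6 after I-BET151), the middle row interferon-induced genes that fell, and the lower row cholesterol genes and Cd4, which also fell. No treated mouse overlaps with a vehicle mouse in any panel.

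The promoters of called interferon genes are shown for a sequence that many members of the interferon lists hold. That of Hist1h4h is shown because it had the lowest p of all genes. Ifit1 was added after its matches were seen. They are RefSeq windows of GRCm38.p6 from 250 bases before to 50 bases after the transcription start, written 5′ to 3′ on the strand of the gene, at chr12:26456403-26456702 on the minus strand for Rsad2, chr19:34640639-34640938 on the plus strand for Ifit1, chr11:48992197-48992496 on the minus strand for Tgtp1 and chr13:23530794-23531093 on the plus strand for Hist1h4h. Capitals mark the core of the interferon-stimulated response element, which is GAAA, any 2 bases and GAAA, or the same core read on the other strand, TTTC, any 2 bases and TTTC.
Rsad2: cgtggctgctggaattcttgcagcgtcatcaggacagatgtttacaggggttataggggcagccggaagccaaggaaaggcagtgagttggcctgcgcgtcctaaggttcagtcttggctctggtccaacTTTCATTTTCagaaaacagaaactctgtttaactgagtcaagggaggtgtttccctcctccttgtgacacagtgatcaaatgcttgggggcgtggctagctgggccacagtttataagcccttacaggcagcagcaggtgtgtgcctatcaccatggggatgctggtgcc
Ifit1: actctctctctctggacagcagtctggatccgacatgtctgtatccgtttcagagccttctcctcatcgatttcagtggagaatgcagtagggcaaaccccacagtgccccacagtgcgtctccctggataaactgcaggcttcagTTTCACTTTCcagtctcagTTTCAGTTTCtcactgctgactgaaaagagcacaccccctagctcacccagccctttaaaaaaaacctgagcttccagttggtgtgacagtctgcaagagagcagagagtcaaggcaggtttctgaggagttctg
Tgtp1: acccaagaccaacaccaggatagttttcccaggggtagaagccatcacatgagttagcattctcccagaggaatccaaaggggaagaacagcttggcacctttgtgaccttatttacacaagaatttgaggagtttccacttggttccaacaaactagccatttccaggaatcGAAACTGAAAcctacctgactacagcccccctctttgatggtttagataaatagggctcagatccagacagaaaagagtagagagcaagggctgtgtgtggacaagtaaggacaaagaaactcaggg
Hist1h4h: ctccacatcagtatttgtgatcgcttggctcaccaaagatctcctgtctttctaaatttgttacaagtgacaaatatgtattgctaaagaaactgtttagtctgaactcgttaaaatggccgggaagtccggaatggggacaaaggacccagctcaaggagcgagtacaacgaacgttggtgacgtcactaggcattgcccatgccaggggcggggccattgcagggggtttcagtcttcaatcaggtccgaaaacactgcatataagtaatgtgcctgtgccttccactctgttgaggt
Relative to the start, the core begins at -120 in Rsad2, at -104 and -85 in Ifit1 and at -77 in Tgtp1. The letters TATAAA were not in the window of Hist1h4h, which RefSeq names H4c8. The table holds no promoter for Usp18.

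Of the 19 antiviral effectors with a RefSeq promoter, 12 (63.2%) held the core on either strand, as did 10 of 10 interferon-induced GTPases and 4 of 16 sensors and transcription factors. Over all 27025 promoters 3.99% held it, and over the tested genes 3.93%. The sterol regulatory element TCACNCCAC, searched on both strands, was in 1 of 15 promoters of cholesterol synthesis enzymes (1.44% of all promoters), and the TATA box letters TATAAA in 5 of 6 promoters of H4 histone genes (15.7% of all promoters). The windows of the called genes Nsdhl and Msmo1 held 0 matches to the sterol regulatory element and are not printed. The interferon lists were made of genes of the interferon response, and all tested members were counted, called or not. The shares therefore describe the lists and not the response to I-BET151. These matches describe the letters in the window and were not tested for binding.

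The interferon-induced GTPases, which attack the vacuoles of intracellular pathogens, had lower means in 15 of 15 genes (median log2 fold change -0.61). Tgtp1 was called. It had 10.3, 12.1, 14.5 and 13.3 CPM in vehicle and 7.31, 5.78, 5.77 and 7.12 in treated mice (log2 fold change -0.95, SE 0.14, adjusted p = 0.0193), with its near copy Tgtp2 at a log2 fold change of -0.85 (adjusted p = 0.135). Without mouse 3, 5 of the 15 fell: Tgtp1, Tgtp2, Gbp3, Gbp4 and Gbp6. Gbp3, a guanylate-binding protein, had 13.2, 12.99, 19.5 and 14.6 CPM against 7.71, 4.52, 9.23 and 4.76, a log2 fold change of -1.20 (adjusted p = 0.135) with all mice and -1.40 (adjusted p = 0.0381) without mouse 3. Apol9a and Apol9b, interferon-inducible members of the apolipoprotein L family with near-identical sequences, were outside the lists. Apol9a had 99.9, 110.5, 105 and 114 CPM against 44.8, 44.4, 54.97 and 34.1 (log2 fold change -1.27, SE 0.15, adjusted p = 0.00947), the second-lowest p of all genes tested after Hist1h4h. Apol9b had 139.6, 148, 118 and 149 CPM against 55.2, 60.6, 78.6 and 43.2 (log2 fold change -1.22, SE 0.17, adjusted p = 0.0186). Both were therefore lower in every treated mouse than in any vehicle mouse, but reads that fit both may be missing from the counts. The DNA-sensor family member Ifi206 had 2.21, 2.29, 4.12 and 2.504 CPM against 1.14, 0.723, 1.06 and 0.827 (log2 fold change -1.56, adjusted p = 0.0528), and Ifit1bl1 had a log2 fold change of -1.43 (adjusted p = 0.0528) at under 1 CPM in every mouse.

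Among 19 tested sensors and transcription factors of the interferon pathway, 1 fell with all mice and 4 without mouse 3, and 14 had lower means in each case. Irf7, the factor that amplifies type I interferon genes, was the called gene, with 45.9, 52.2, 58.1 and 67.9 CPM in vehicle and 27.9, 25.1, 34.9 and 21.97 in treated mice (log2 fold change -1.03, SE 0.19, adjusted p = 0.052). Irf9, a DNA-binding factor of type I interferon signalling, had 63.4, 66.2, 57.4 and 64.8 CPM against 42.2, 33.98, 74.8 and 40.1, where mouse 3 was the highest of the 8, and Dhx58, an RNA sensor, had 23.9 CPM in mouse 3 against 12.3 to 13.7 in the other treated mice. Among 16 chemokines 1 fell with all mice and 3 without mouse 3. Cxcl9, an interferon-gamma-induced ligand of CXCR3 on T cells, had 7.597, 9.01, 11.6 and 9.803 CPM against 3.999, 4.82, 3.17 and 1.84 (log2 fold change -1.46, SE 0.27, adjusted p = 0.0528). Cxcl10, a ligand of the same receptor, had 4.45, 5.505, 5.73 and 6.41 CPM against 2.86, 2.71, 3.67 and 0.988 (log2 fold change -1.10, adjusted p = 0.238, and -1.33, adjusted p = 0.0641, without mouse 3). Ccl5, which attracts T cells and macrophages, had 1.51, 1.47, 2.63 and 2.57 CPM against 1.15, 0.753, 0.5199 and 0.735 (log2 fold change -1.37, adjusted p = 0.135, and -1.19, adjusted p = 0.0897, without mouse 3).

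T cell markers were lower in 6 of 6 genes (median log2 fold change -1.21), and 1 of the 6 was called in edgeR with or without mouse 3. DESeq2 called 3 and limma-voom 4, and 0 passed in edgeR with the 8 STAM mice alone. Their summed CPM was 5.37 to 7.299 in vehicle, 2.02 to 3.19 in treated and 2.099 to 5.38 in healthy mice. Cd4, the co-receptor of helper T cells, had 2.77, 2.13, 1.51 and 2.69 CPM in vehicle and 0.558, 0.633, 0.9502 and 0.505 in treated mice (log2 fold change -1.77, SE 0.32, adjusted p = 0.052), and the call was lost without I-BET151 mouse 1 or 4 or vehicle mouse 1, 2 or 4, with adjusted p up to 0.179. Cd8a, of cytotoxic T cells, had 0.841, 0.648, 0.503 and 1.34 CPM against 0.324, 0.361, 0.179 and 0.322 (log2 fold change -1.49, adjusted p = 0.186), and Cd3e, a chain of the T cell receptor complex, 1.42, 0.9904, 0.948 and 1.17 against 0.3603, 0.482, 0.627 and 0.551 (log2 fold change -1.15, adjusted p = 0.312). In bulk liver RNA, fewer cells of a type and less RNA per cell cannot be told apart. Of 18 tested T cell signalling genes 17 had lower means and 0 were called with all mice in edgeR, where 8 were at an unadjusted p under 0.05 and DESeq2 called 3. Without mouse 3, 5 fell: Cd7, Cd5, Trbc1, Lat and Gimap3. Cd7 had 0.216, 0.514, 0.638 and 0.594 CPM against 0.126, 0.0602, 0.179 and 0.138 (log2 fold change -1.90, adjusted p = 0.11, and -2.11, adjusted p = 0.0496, without mouse 3) and Cd5 0.529, 0.305, 0.774 and 0.637 against 0.216, 0.151, 0.179 and 0.184 (log2 fold change -1.59, adjusted p = 0.136, and -1.56, adjusted p = 0.0879, without mouse 3). Klrk1, which encodes the activating receptor NKG2D of NK and cytotoxic T cells, had a log2 fold change of -0.98 (adjusted p = 0.196), and -1.05 (adjusted p = 0.0873) without mouse 3.

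All 9 MHC class II genes had lower means (median log2 fold change -0.49) and 0 passed with all mice in edgeR or DESeq2, with 3 at an unadjusted p under 0.05. H2-Ab1, the beta chain of I-A, had 18.9, 22.8, 35.8 and 28.1 CPM in vehicle and 17.7, 10.1, 24.99 and 13.7 in treated mice (log2 fold change -0.67, adjusted p = 0.451, and -0.92, adjusted p = 0.0845, without mouse 3, the 1 member called there), and Cd74, the invariant chain, had 57.98, 69.1, 118 and 89.5 against 56.2, 39.5, 62.9 and 52.5 (log2 fold change -0.66, adjusted p = 0.371). Of 12 class I and immunoproteasome genes 11 had lower means and 0 passed with all mice in edgeR, with 1 at an unadjusted p under 0.05 and 1 called by DESeq2, while Psmb8 (log2 fold change -0.47, adjusted p = 0.0977) and Psmb9 (log2 fold change -0.38, adjusted p = 0.0933) fell without mouse 3. The classical class I gene H2-K1 had a log2 fold change of -0.39 (adjusted p = 0.583), while the class I gene H2-Q1, not on the list, had 8.85, 11.8, 15.9 and 10.2 CPM against 6.18, 7.44, 3.998 and 5.49 (log2 fold change -1.02, adjusted p = 0.0953), a call lost when any of 9 mice was left out. Ly6a, the surface antigen Sca-1, had 20.5, 18.5, 29.4 and 20.8 CPM against 8.43, 6.63, 16.4 and 7.54 without overlap (log2 fold change -1.19, adjusted p = 0.196, and -1.55, adjusted p = 0.0221, without mouse 3), and 5 of 5 tested Ly6 genes had lower means. Ly6c2, of inflammatory monocytes, had a log2 fold change of -1.17 (adjusted p = 0.401). Among 17 innate cytokines and sensors 0 passed with or without mouse 3 in edgeR, or in DESeq2, with 2 at an unadjusted p under 0.05. Tlr7, a sensor of single-stranded RNA, had a log2 fold change of -0.66 (adjusted p = 0.535) and Tnfaip3, a brake on NF-kappa-B, -0.44 (adjusted p = 0.576). Tlr4 had a log2 fold change of -0.30 (adjusted p = 0.812) and Tlr9 -0.15 (adjusted p = 0.937).

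The markers of other cell types passed in 0 of 40 tested genes with all mice in edgeR, with 3 at an unadjusted p under 0.05 and 1 called by DESeq2 (Klrk1). Over all 16823 genes tested, 1460 were at an unadjusted p under 0.05. The part of these cell types in the results was not tested. Summed CPM of 5 Kupffer cell markers was 237 to 455 in vehicle and 172 to 406 in treated mice, with Clec4f at a log2 fold change of -0.17 (adjusted p = 0.868) and Cd5l at a log2 fold change of -0.27 (adjusted p = 0.859). For 5 infiltrating macrophage markers it was 65.5 to 103 against 68.6 to 110.5 (Spp1 log2 fold change 0.18, adjusted p = 0.859, Gpnmb -0.21, adjusted p = 0.934), and for 4 neutrophil markers 5.58 to 13.8 against 4.34 to 11.1 (Retnlg -0.15, adjusted p = 0.978, S100a9 -0.14, adjusted p = 0.98). Sinusoidal endothelium (4 markers) had 208 to 262 against 194 to 263, with Stab2 at a log2 fold change of 0.20 (adjusted p = 0.835) and Clec4g at a log2 fold change of -0.14 (adjusted p = 0.882). Stellate cells (5 markers) had 56.9 to 99.5 against 78.3 to 118, with Lrat, the enzyme that stores retinol as ester, at 6.06 to 8.85 CPM in vehicle and 9.19 to 12.1 in treated mice (log2 fold change 0.44, adjusted p = 0.421), and Reln at a log2 fold change of -0.24 (adjusted p = 0.781). Cholangiocyte markers (4) had 13.4 to 17.1 against 11.8 to 13.1, with Krt19 at a log2 fold change of -0.60 (adjusted p = 0.535) and Sox9 at a log2 fold change of -0.37 (adjusted p = 0.614). The 4 B cell markers (Cd79a log2 fold change -0.21, adjusted p = 0.937, Cd79b -0.39, adjusted p = 0.862), the 3 plasma cell markers (Jchain -0.42, adjusted p = 0.857, Derl3 0.46, adjusted p = 0.75) and the 2 tested of 4 NK cell markers (Klrb1c -0.23, adjusted p = 0.885) summed to 1.905 to 2.998 against 1.14 to 3.31, 6.66 to 13.02 against 8.07 to 21.8 and 2.07 to 2.998 against 1.08 to 1.801. Erythroid markers ranged widely between mice, with 125, 28.3, 535 and 255 CPM of beta-globin (Hbb-bs) in vehicle mice and 258, 70.3, 76.8 and 236 in treated mice, and Alas2 at a log2 fold change of -0.25 (adjusted p = 0.816). Of 4 pancreas markers 1 was tested (Cela1 log2 fold change 0.05, adjusted p = 0.983), and of 3 adipose markers 0 had enough counts.

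The enzymes of cholesterol synthesis also fell, with 8 of the 43 decreases. All 20 were tested, 20 had lower means after I-BET151 and 8 passed, against 0.256% of all genes that fell. The median log2 fold change was -0.68. Without mouse 3, 11 passed, against 1.46% of all genes that fell, and the median was -0.77. The number was 2 without I-BET151 mouse 1, 3 without vehicle mouse 4 and 5 without vehicle mouse 2, and 0 with the 8 STAM mice alone, 0 with lane as a covariate and 1 with a replicate block. DESeq2 called 12 and limma-voom 17, against 174 and 685 of all genes as lower. Hmgcs1, an enzyme of the early pathway (ENSMUSG00000093930, chr13:119690379-119708260), had 111, 93.8, 128 and 163 CPM in vehicle mice and 68.2, 70.9, 43.05 and 39.5 in treated mice (log2 fold change -1.16, SE 0.22, adjusted p = 0.0648). The 4 treated mice, mouse 3 included, had 39.5 to 70.9 CPM, below the 91.4 to 133 CPM of healthy livers.

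In the mevalonate branch, Mvd (mevalonate diphosphate decarboxylase) had 8.61, 10.8, 9.19 and 14.1 CPM against 3.495, 4.55, 5.95 and 3.29 (log2 fold change -1.30, SE 0.22, adjusted p = 0.0366) and Idi1 (isopentenyl diphosphate isomerase) 16.4, 20.2, 20.3 and 36.6 against 7.76, 8.64, 8.28 and 2.44 (log2 fold change -1.79, SE 0.34, adjusted p = 0.0554). Fdps (farnesyl diphosphate synthase) had 9.54, 11.4, 7.27 and 14.98 CPM against 3.28, 4.398, 10.1 and 3.47, with mouse 3 among the vehicle mice, and a log2 fold change of -1.02 (adjusted p = 0.337) with all mice or -1.54 (adjusted p = 0.00833) without mouse 3. Sqle (squalene epoxidase) had 15.9, 26.8, 24.5 and 41.4 CPM against 9.69, 11.3, 9.09 and 5.22 (log2 fold change -1.62, SE 0.27, adjusted p = 0.0366). In both Idi1 and Sqle, vehicle mouse 4 was the highest and I-BET151 mouse 4 the lowest of the 8. After lanosterol, Cyp51 had 32.7, 40.2, 37.8 and 66.5 CPM against 21.8, 24.01, 15.9 and 11.8 (log2 fold change -1.27, adjusted p = 0.055), Msmo1, a sterol methyl oxidase, 77.2, 77.8, 63.6 and 122 against 25.4, 37.2, 36.6 and 17.2 (log2 fold change -1.55, adjusted p = 0.0304), and Nsdhl, which removes the same methyl groups, 13.5, 14.3, 15.3 and 22.5 against 7.76, 8.68, 8.32 and 6.04 (log2 fold change -1.09, adjusted p = 0.0258). Lss and Mvk passed without mouse 3 only, at a log2 fold change of -0.78 (adjusted p = 0.0319) and -0.76 (adjusted p = 0.0825).

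Of 14 tested genes of cholesterol control and uptake 1 fell with all mice and 3 without mouse 3, and 7 of the 14 had lower means with all mice. Insig1, an anchor of the SREBP complex, had 102, 97.4, 73.8 and 126 CPM against 42.8, 67.9, 89.5 and 35.3 (log2 fold change -0.76, adjusted p = 0.373, and -1.03, adjusted p = 0.0475, without mouse 3). Mouse 3 lay within the vehicle range for Insig1. Srebf2, the gene of the transcription factor of the pathway, had 58.6, 66.7, 59.2 and 77.6 CPM against 46.1, 54.6, 47.2 and 49.6 without overlap and a log2 fold change of -0.41 (adjusted p = 0.276).

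Fatty acid synthesis had 16 of 20 lower means (median log2 fold change -0.41), with 1 gene called with all mice and 6 without mouse 3. Elovl6, which extends palmitate, had 33.3, 43.6, 43.5 and 33.4 CPM against 20.7, 22.3, 18.9 and 11.2 (log2 fold change -1.07, SE 0.22, adjusted p = 0.0768), and this call was lost when any of 8 mice was left out. Fasn (fatty acid synthase) had 211, 333, 181 and 257 CPM against 108, 108, 302 and 74.4, where mouse 3 was the second highest of the 8, and a log2 fold change of -0.73 (adjusted p = 0.593) with all mice or -1.33 (adjusted p = 0.0108) without mouse 3. Acly, which supplies acetyl-CoA, had 118, 156, 117 and 139.8 against 92.7, 98.1, 75.6 and 83.9 (log2 fold change -0.60, adjusted p = 0.135, and -0.53, adjusted p = 0.0581, without mouse 3), and Acaca, acetyl-CoA carboxylase, -0.57 (adjusted p = 0.0717) without mouse 3. Thrsp, a lipogenic gene driven by carbohydrate and thyroid hormone, had 123, 140.5, 58.8 and 69.5 CPM against 12.3, 35, 112 and 9.19, with a log2 fold change of -1.21 (adjusted p = 0.614) and -2.38 (adjusted p = 0.0317). The delta-5 desaturase gene Fads1 had a log2 fold change of -0.59 (adjusted p = 0.0964) without mouse 3.

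Genes of fatty acid oxidation and targets of PPAR-alpha were evenly divided with all mice, with 10 of 20 higher means and 0 calls in edgeR or DESeq2 (4 at an unadjusted p under 0.05). Without mouse 3, 17 of 20 had higher means and 2 rose. Ehhadh, a peroxisomal enzyme of beta-oxidation, had 804, 521, 981 and 838 CPM against 1610, 2288, 610.3 and 1199 (log2 fold change 0.86, adjusted p = 0.521, and 1.12, adjusted p = 0.0879, without mouse 3), and Cyp4a31, a fatty acid omega-hydroxylase, 246, 202, 240.3 and 278 against 329, 714, 172 and 344 (log2 fold change 0.95, adjusted p = 0.0897, without mouse 3). Acot1, an acyl-CoA thioesterase, had 57.5, 47.9, 72.9 and 63.4 CPM against 77.4, 157, 80.5 and 77 without overlap (log2 fold change 0.70, adjusted p = 0.415). Of 16 lipid uptake and droplet genes 0 passed with all mice in edgeR or DESeq2, with 2 at an unadjusted p under 0.05. Fabp4, a fatty acid binding protein of fat cells and macrophages, had 19.3, 19.9, 39.1 and 28.9 CPM against 89.6, 35.5, 22.3 and 87.96 (log2 fold change 1.14, adjusted p = 0.384, and 1.42, adjusted p = 0.0579, without mouse 3, with 1 I-BET151 mouse within the vehicle range), and the droplet gene Cidea -1.35 (adjusted p = 0.382).

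Among further called decreases, Ppargc1a, Akr1d1 and Cyp2c39 were each the 1 edgeR call of their list with all mice. Ugt1a9, Ces1b, Amy1, Camk1d and Scn2a were outside the lists. Ppargc1a, the coactivator of gluconeogenesis and mitochondrial genes, had 40.1, 19.6, 23.1 and 23.96 CPM in vehicle and 7.33, 10.3, 7.39 and 12.5 in treated mice (log2 fold change -1.51, SE 0.27, adjusted p = 0.0485), the 1 call among 15 gluconeogenesis and insulin response genes, of which 13 had lower means. DESeq2 called 1 and limma-voom 5 of the 15 as lower. Akr1d1, the 5-beta-reductase of bile acid synthesis, had 172, 216, 136 and 181 CPM against 70.8, 119, 53.9 and 82.1 (log2 fold change -1.11, adjusted p = 0.0767), the 1 call among 14 bile acid genes, lost when any of 9 mice was left out. Cyp2c39 had 18.1, 13.1, 18.6 and 9.72 CPM against 5.89, 6.51, 2.797 and 8.06 (log2 fold change -1.36, adjusted p = 0.0875), the 1 call among 21 P450 genes, lost when any of 10 mice was left out. Of the 21, 16 had lower means and 6 were at an unadjusted p under 0.05 in edgeR. DESeq2 called 3 and limma-voom 4 of the 21 as lower, against 174 and 685 of all genes. Ugt1a9, a glucuronosyltransferase that shares its last exons with the other Ugt1a genes, had 109, 60.6, 81.5 and 68.5 CPM against 23.6, 40.4, 18.6 and 16.4 (log2 fold change -1.69, SE 0.27, adjusted p = 0.0352). Ces1b, a carboxylesterase, had 127, 127, 81.6 and 110.4 against 42.2, 66.6, 62.8 and 58.8 (log2 fold change -0.95, adjusted p = 0.0485), and Amy1, amylase, 168, 168, 135 and 145 against 52.8, 94.3, 29.9 and 77 (log2 fold change -1.28, adjusted p = 0.0998), the call nearest to the threshold. The calcium/calmodulin kinase gene Camk1d had 37.96, 44.5, 27.1 and 37.7 CPM against 14.4, 14.1, 9.305 and 22.9 (log2 fold change -1.28, adjusted p = 0.0485), with 61.2 to 79.3 in healthy mice. Scn2a, a neuronal sodium channel, had 1.15, 1.14, 0.871 and 0.637 CPM against 0.1801, 0.301, 0.143 and 0.2298 (log2 fold change -2.17, adjusted p = 0.0528), with 0 to 0.05298 in healthy mice.

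Of 19 glutathione transferases 17 had lower means with all mice and 13 without mouse 3. With all mice in edgeR, 10 were at an unadjusted p under 0.05, and the 1 called gene rose. DESeq2 called 1 as higher and 3 as lower, and limma-voom 1 as higher and 7 as lower. Gstp3 (ENSMUSG00000058216, chr19:4057477-4059569), a pi-class transferase, had 11.6, 12, 10.4 and 9.55 CPM in vehicle and 28.7, 22.1, 14.7 and 26.4 in treated mice (log2 fold change 1.08, SE 0.18, adjusted p = 0.0366). Without mouse 3 its log2 fold change was 1.25 (adjusted p = 6.91e-04), and the call was lost without I-BET151 mouse 1 or vehicle mouse 4 (adjusted p up to 0.133). Without mouse 3, Gsta3 and Gstm2 fell by a log2 fold change of 0.90 (adjusted p = 0.0876) and 0.51 (adjusted p = 0.0578) on the log2 scale. Sult2a7, a sulfotransferase of steroids and bile acids, had 8.05, 9.94, 9.03 and 10.6 CPM against 30.9, 26.03, 16.96 and 20.3 (log2 fold change 1.32, SE 0.24, adjusted p = 0.0526), with 0.988 to 2.501 in healthy mice. Hdc, which makes histamine, had 40.2, 31.3, 38.4 and 39.95 CPM against 51.2, 93.3, 114 and 99.7 (log2 fold change 1.26, SE 0.23, adjusted p = 0.0485). The order of the treated mice differed between these genes, as I-BET151 mouse 1 was the lowest of the treated mice for Hdc and the highest for Gstp3. Of 10 targets of the oxidative stress factor NRF2 0 passed in edgeR or DESeq2, with 2 at an unadjusted p under 0.05 (Nqo1 log2 fold change -0.84, adjusted p = 0.294, Slc7a11 -0.86, adjusted p = 0.484).

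With all mice in edgeR, the H4 histone genes were the one list in which several genes rose. Of 13 on the list 7 were tested, 3 rose, against 0.0951% of all genes, 6 had higher means and the median log2 fold change was 1.74. Without mouse 3 these 3 kept their calls, and 1 of the 3 kept it without I-BET151 mouse 1 or vehicle mouse 4. Hist1h4k, Hist1h4m and Hist1h4d passed the count filter, at 0.22 CPM in 4 mice, only through the treated group, so the count and the median over the tested genes are a description. Replication-dependent histone mRNAs end in a stem-loop and lack a poly-A tail, and the libraries were made by poly-A selection, so these values are of the polyadenylated share. Hist1h4h (ENSMUSG00000060981, chr13:23531050-23531519) had 1.32, 1.94, 1.57 and 1.72 CPM in vehicle mice and 18.4, 25.6, 6.96 and 19.5 in treated mice (log2 fold change 3.42, SE 0.36, adjusted p = 0.00409), and healthy mice had 0.371 to 0.988. Mouse 3 was the lowest treated mouse, well above every vehicle mouse. Hist1h4k had 0.2404, 0.305, 0.348 and 0.106 CPM against 1.24, 0.934, 1.703 and 0.8502 (log2 fold change 2.23, SE 0.36, adjusted p = 0.0364) and Hist1h4m 0.264, 0.248, 0.213 and 0.106 against 0.793, 0.904, 0.9502 and 0.735 (log2 fold change 2.01, SE 0.34, adjusted p = 0.0366), and in both mouse 3 was the highest treated mouse. Hist1h4a had 0, 0.0381, 0.0193 and 0 CPM against 0.288, 0.422, 0.108 and 0.437. It was below the filter with all mice and passed it without mouse 3 only through the treated group, so no fold change is given. Hist1h4i had a log2 fold change of 0.57 (adjusted p = 0.721) and Hist2h4 -0.48 (adjusted p = 0.887). The H4 genes encode the same protein, and reads that fit several of them may be missing from the counts where their sequences are alike.

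The other clustered histones passed in 0 of 12 tested H2A and H2B genes (38 on the list) and 0 of 3 tested H1 and H3 genes (18 on the list) with all mice, with 3 and 2 at an unadjusted p under 0.05 and 0 by DESeq2, while 10 of 12 and 3 of 3 had higher means. Hist1h2bg had 8.61, 6.86, 5.44 and 7.11 CPM against 10.2, 17.4, 5.95 and 10.1 (log2 fold change 0.64, adjusted p = 0.484, and 0.85, adjusted p = 0.0641, without mouse 3), Hist1h2bc 0.70 (adjusted p = 0.0301) without mouse 3 and Hist1h2be 0.82 (adjusted p = 0.409). Hist1h2al was below the count filter. The linker histone gene Hist1h1c had 37.5, 38.3, 36.1 and 44.2 against 62, 59.04, 31.97 and 74.5 (log2 fold change 0.54, adjusted p = 0.498, and 0.75, adjusted p = 0.0388, without mouse 3), and Hist1h1d 1.42 (adjusted p = 0.508). Of 8 histone variants made outside the clusters 4 had higher and 4 lower means, with H2afj at a log2 fold change of 0.18 (adjusted p = 0.797) and H3f3b at a log2 fold change of -0.15 (adjusted p = 0.839).

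Several called genes were outside the lists. Gm15441, a transcript antisense to the thioredoxin-interacting protein gene Txnip, had 4.57, 2.13, 6.89 and 5.75 CPM in vehicle and 13.4, 22.9, 24.03 and 12.8 in treated mice (log2 fold change 1.92, SE 0.38, adjusted p = 0.068), and whether the counting used strand is not stated, so reads of the pair may not be separated. Arntl2, a partner of the clock factor CLOCK, had 1.42, 1.12, 1.799 and 1.51 CPM against 3.17, 2.89, 8.07 and 3.24 (log2 fold change 1.57, SE 0.32, adjusted p = 0.0808), with mouse 3 far above the others and 1.09 (adjusted p = 0.027) without it. Adra1a, the alpha-1A adrenergic receptor, had 4.25, 3.6, 4.04 and 4.07 CPM against 7.46, 7.11, 6.67 and 8.36 (log2 fold change 0.89, SE 0.13, adjusted p = 0.0212). Pdzrn3, a ubiquitin ligase, had 5.75, 4.82, 8.82 and 7.75 against 16.9, 14.3, 16.4 and 13.6 (log2 fold change 1.17, adjusted p = 0.0366), Mettl27 14.6, 11.1, 15.9 and 12.3 against 22.6, 21.3, 30.1 and 21.5 (log2 fold change 0.83, adjusted p = 0.052) and Rab11fip4, an effector of endosome recycling, 15.4, 16.4, 16.9 and 18.5 against 27.4, 28.6, 35.4 and 26.6 (log2 fold change 0.81, adjusted p = 0.052). A few decreases were in genes without a known role. ENSMUSG00000104475, which matched no symbol, had 4.23, 5.43, 4.72 and 5.18 CPM in vehicle and 0.937, 1.36, 1.31 and 0.643 in treated mice (log2 fold change -2.21, SE 0.39, adjusted p = 0.0485), the largest decrease called. The non-coding transcript 4732465J04Rik had 21.9, 18.7, 13.4 and 15.1 against 9.38, 6.63, 8.96 and 7.15 (log2 fold change -1.10, adjusted p = 0.0304), 9430037G07Rik 13.4, 8.78, 7.47 and 9.59 against 2.38, 3.49, 5.33 and 3.72 (log2 fold change -1.39, adjusted p = 0.0649) and 9330159M07Rik 20.2, 10.9, 12.5 and 13.5 against 6.04, 5.99, 8.71 and 7.12 (log2 fold change -1.03, adjusted p = 0.0756). Smaller rises were called for the nuclear pore gene Nup210 (log2 fold change 0.69, adjusted p = 0.081), the GTPase-activating protein gene Dlc1 (log2 fold change 0.57, adjusted p = 0.0766), Shroom3 (log2 fold change 0.55, adjusted p = 0.0917) and Gtf2ird1 (log2 fold change 0.52, adjusted p = 0.0681).

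The acute-phase proteins spread widely between the treated mice. Of 20 genes 18 had higher means and 0 passed in edgeR or DESeq2 (3 at an unadjusted p under 0.05), with a median log2 fold change of 0.58. The median was 0.93 without mouse 3, where 4 genes passed (Saa2, Crp, Apcs and Fga), and -0.01 without I-BET151 mouse 4. Serum amyloid A 2 (Saa2) had 18.1, 56.3, 38.7 and 22.2 CPM in vehicle and 131, 19.97, 4.03 and 1237 in treated mice (log2 fold change 3.36, adjusted p = 0.401), and Saa1 42.2, 158, 97.9 and 56.9 against 308, 46.3, 9.74 and 1840 (log2 fold change 2.63, adjusted p = 0.508). Mice 1 and 4 lay above the vehicle mice, mouse 2 at the low end of them and mouse 3 below them. The iron-binding lipocalin Lcn2 had 41.7, 60.3, 185 and 44.7 CPM in vehicle and 171, 40.6, 12.1 and 566 in treated mice, which were again in the order 4, 1, 2, 3. Crp, C-reactive protein, had 233, 269, 232 and 246 against 337, 295, 106 and 368 (log2 fold change 0.45, adjusted p = 0.0974, without mouse 3).

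**Figure D4:**
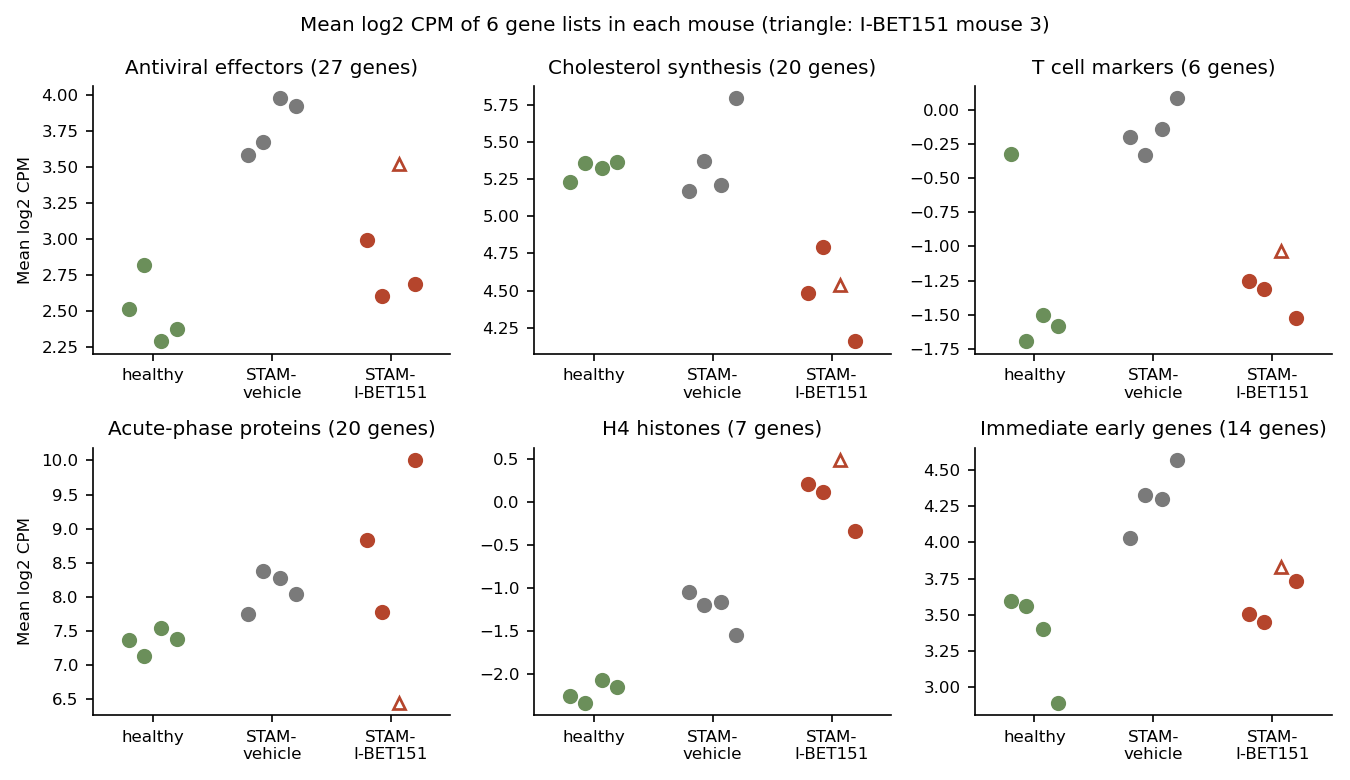
Mean log2 CPM of 6 gene lists (vertical axes, each with its own range) in each mouse of the 3 groups, with I-BET151 mouse 3 as an open triangle. Antiviral effectors lie at 3.59 to 3.98 in vehicle mice and 2.603 to 3.52 after I-BET151, cholesterol synthesis at 5.17 to 5.79 and 4.16 to 4.79, and acute-phase proteins at 7.74 to 8.38 and 6.44 to 10.01, the one panel in which the treated mice spread beyond the vehicle mice on both sides.

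Of the collagens and matrix genes 0 passed with all mice in edgeR, with 4 at an unadjusted p under 0.05, and DESeq2 called 1, Thbs1. Of 16 collagens 13 had higher means with all mice and 9 without mouse 3, and 0 passed in either (median log2 fold change 0.25 and 0.0045). Col1a1, the main chain of scar collagen, had 10.4, 14.9, 16.7 and 16.9 CPM against 15.1, 11.3, 29.2 and 14.4 (log2 fold change 0.25, adjusted p = 0.862), Col4a2 of the basement membrane 55.6, 58.6, 62.8 and 72.7 against 78.7, 76.9, 77.3 and 104 without overlap (log2 fold change 0.43, adjusted p = 0.489), and Col8a1 0.69 (adjusted p = 0.508). Of 30 tested genes of stellate activation and matrix remodelling 0 passed with all mice and 1 without mouse 3, Thbs1, an activator of TGF-beta, at 3.65, 6.46, 6.13 and 6.51 CPM in vehicle and 3.15, 1.78, 2.67 and 2.48 in treated mice (log2 fold change -1.17, adjusted p = 0.149, and -1.18, adjusted p = 0.0903, without mouse 3). Mmp13, a collagenase, had 0.769, 1.09, 2.399 and 0.934 against 0.648, 0.301, 0.789 and 0.368 (log2 fold change -1.27, adjusted p = 0.392). Timp1, the metalloproteinase inhibitor, had 0.385, 0.40, 0.812 and 0.509 CPM against 0.4504, 0.211, 0.681 and 0.551, Acta2, the smooth muscle actin of activated stellate cells, 7.48, 4.44, 5.32 and 4.69 against 5.75, 1.81, 11.2 and 4.14, and Lox, a collagen cross-linker, 1.59, 1.58, 1.82 and 1.49 against 0.883, 0.512, 0.968 and 1.56. The groups overlapped in all 3, but in Lox only through I-BET151 mouse 4 (1.56), with the other treated mice below every vehicle mouse. The log2 fold changes of Timp1, Acta2 and Lox were -0.13 (adjusted p = 0.972), 0.07 (adjusted p = 0.987) and -0.71 (adjusted p = 0.59) with all mice. In Acta2 mouse 3 was the highest of the treated mice, and without it the log2 fold change was -0.46 (adjusted p = 0.653).

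The genes of the drug's targets and of P-TEFb passed in 0 of 13 cases with or without mouse 3 in edgeR, and in 0 by DESeq2, with 2 at an unadjusted p under 0.05 with all mice. Brd2 had 147, 154, 136 and 150.4 CPM in vehicle and 140.5, 113, 280.4 and 123 in treated mice (log2 fold change 0.16, adjusted p = 0.911), and Brd3 had 53.7, 44.1, 40.04 and 44.1 against 48.1, 42.5, 80.6 and 45.7 (log2 fold change 0.25, adjusted p = 0.781), with mouse 3 the highest of the 8 in both. Brdt, mainly a testis gene, had 1.23, 1.33, 0.716 and 1.17 against 1.75, 1.42, 1.52 and 2.53 (log2 fold change 0.70, adjusted p = 0.441). Hexim1, the inhibitor of P-TEFb, had 35.5, 43.1, 38.2 and 43.2 CPM against 33.04, 36.9, 32.6 and 26.5 (log2 fold change -0.31, adjusted p = 0.468). Of 14 immediate early genes 12 had lower means and 1 fell with all mice, while 14 had lower means and 3 fell without mouse 3. Ier2 had 21.4, 35.3, 23.1 and 39.7 CPM against 13.9, 17.5, 12.3 and 16.7 (log2 fold change -0.98, SE 0.19, adjusted p = 0.0648), Junb -0.50 (adjusted p = 0.148) with all mice and -0.45 (adjusted p = 0.082) without mouse 3, and Fosb -1.41 (adjusted p = 0.0991) without mouse 3. Bag3, a co-chaperone of HSP70 (log2 fold change -0.61, adjusted p = 0.0681), Spry4, a feedback inhibitor of growth factor signalling (log2 fold change -1.20, adjusted p = 0.0681), and Rbm14 (log2 fold change -0.84, adjusted p = 0.0681) fell outside the lists.

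Of 24 tested genes of the cell cycle 0 passed with all mice in edgeR, where 7 were at an unadjusted p under 0.05 and DESeq2 called 5, and 1 rose and 2 fell without mouse 3. Cdk1, the mitotic kinase, had 1.23, 1.24, 1.28 and 1.27 CPM against 0.595, 0.361, 0.807 and 0.528 without overlap (log2 fold change -1.11, adjusted p = 0.135, and -1.30, adjusted p = 0.0243, without mouse 3), Rrm2, of ribonucleotide reductase, -1.49 (adjusted p = 0.0879) without mouse 3, and Mcm7, of the replicative helicase, 12.8, 12.7, 10.8 and 12.8 against 17.1, 15.1, 18.5 and 18.5 (log2 fold change 0.49, adjusted p = 0.145, and 0.47, adjusted p = 0.0581, without mouse 3). Of 11 p53 targets 0 passed in edgeR or DESeq2, with 1 at an unadjusted p under 0.05 (Bax log2 fold change 0.39, adjusted p = 0.38, Ccng1 -0.26, adjusted p = 0.763). Of 18 clock genes 0 passed with all mice in edgeR or DESeq2, with 1 at an unadjusted p under 0.05 (Cry1 log2 fold change -0.52, adjusted p = 0.545, Npas2 -0.63, adjusted p = 0.664) and Per2 fell without mouse 3 (log2 fold change -0.92, adjusted p = 0.0329), with 63.99, 81.6, 66.8 and 75.3 CPM in vehicle and 38.3, 43.2, 138 and 31.6 in treated mice. In Per2, mouse 3 lay above every vehicle mouse and the 3 other treated mice below every vehicle mouse. The growth hormone axis had 0 of 16 calls in edgeR or DESeq2 and 4 genes at an unadjusted p under 0.05, with the male-biased genes Mup20 at a log2 fold change of -1.16 (adjusted p = 0.479) and Slco1a1 at a log2 fold change of -1.10 (adjusted p = 0.535).

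Several further lists held 111 tested genes, of which 0 passed in edgeR or DESeq2 with all mice and 6 were at an unadjusted p under 0.05. Without mouse 3 edgeR called 1, Creld2. DESeq2 without mouse 3 called 7 cytosolic ribosomal proteins and 2 complement genes as higher, 1 apolipoprotein gene as higher and 1 as lower, and 1 gene of the ER and integrated stress response as lower. Over all genes, that fit called 637 as higher and 651 as lower. Lower means were found for nuclear oxidative phosphorylation genes in 20 of 20 with all mice and 11 without mouse 3 (Sdhb log2 fold change -0.49, adjusted p = 0.477, Ndufb5 -0.33, adjusted p = 0.571), for mitochondrially encoded genes in 8 of 13 with all mice and 1 without mouse 3, for cytosolic ribosomal proteins in 5 of 18 with all mice and 0 without mouse 3 (Rpl3 0.26, adjusted p = 0.678), for complement in 14 of 19 with all mice and 6 without mouse 3 (C9 -0.63, adjusted p = 0.684, Cfd -1.42, adjusted p = 0.515) and for apolipoproteins in 13 of 16 with all mice and 10 without mouse 3 (Apoa5 -0.54, adjusted p = 0.59). Lipc, hepatic lipase, had a log2 fold change of -0.63 (adjusted p = 0.295). Nuclear-retained RNAs had higher means in 5 of 5 with all mice and in 2 without mouse 3 (Snhg11 log2 fold change 0.55, adjusted p = 0.728, Kcnq1ot1 0.31, adjusted p = 0.818). Among the hepatocyte markers, Alb had a log2 fold change of 0.13 (adjusted p = 0.977) and Cps1, of the urea cycle, -0.68 (adjusted p = 0.638). In the mitochondrial genome, mt-Atp6 had a log2 fold change of 1.55 (adjusted p = 0.607) and mt-Co2 1.35 (adjusted p = 0.647), which turned to -0.20 and -0.29 without I-BET151 mouse 2, the mouse with 22.7 and 18.4 CPM of them. Of 15 genes of the ER and integrated stress response 10 had lower means in each case, with Creld2 at a log2 fold change of -0.58 (adjusted p = 0.23) (log2 fold change -0.43, adjusted p = 0.0735, without mouse 3, a fall) and Trib3 at a log2 fold change of 0.48 (adjusted p = 0.535).

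**Figure D5:**
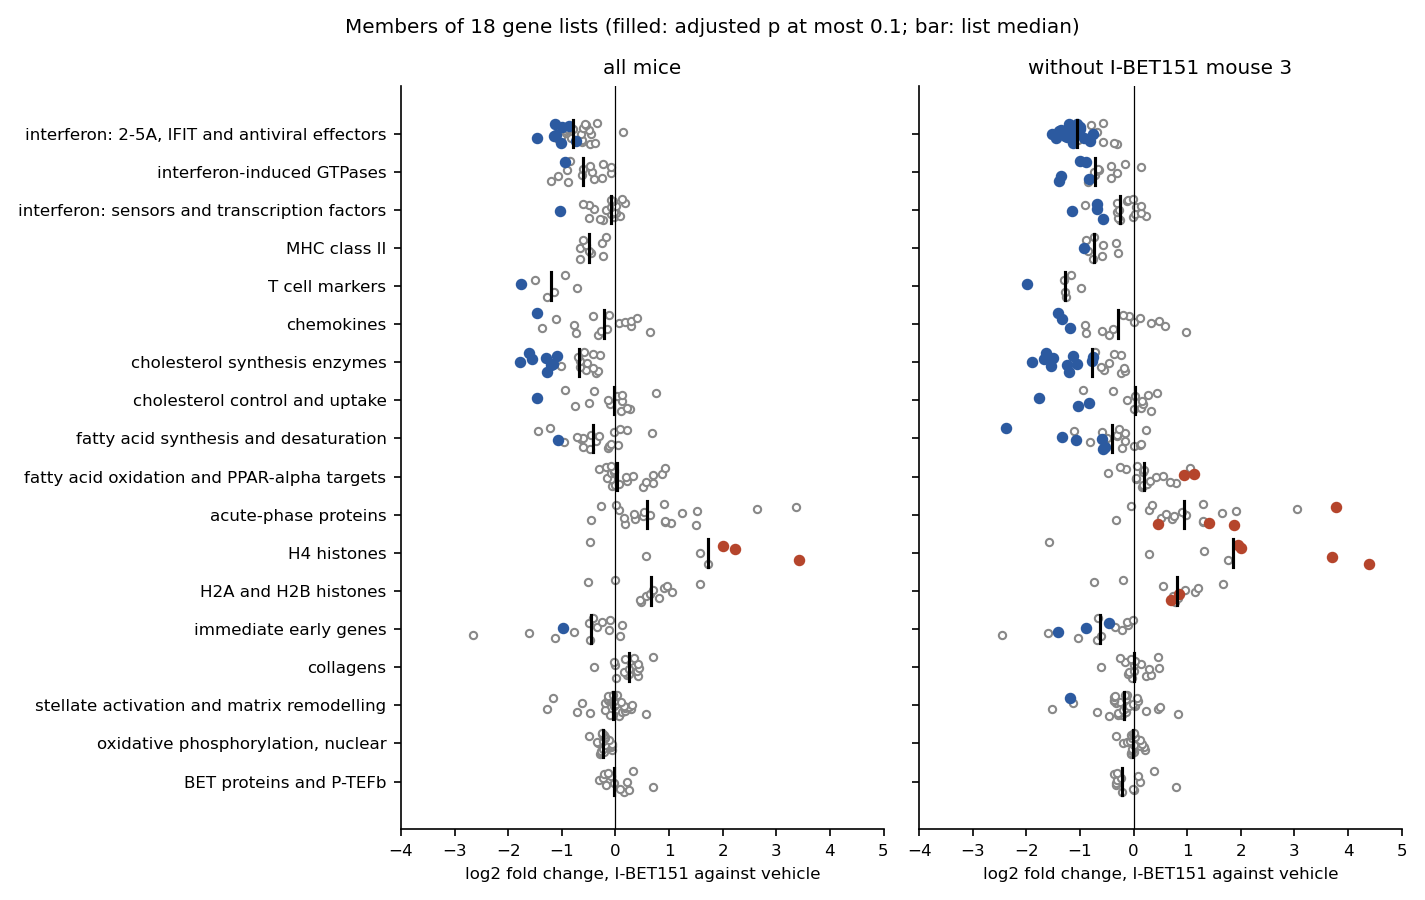
log2 fold change of I-BET151 against vehicle (horizontal axes) for the members of 18 gene lists (rows), with all mice on the left and without I-BET151 mouse 3 on the right. Each point is a gene, filled red or blue where it rose or fell, and the bar is the list median. For antiviral effectors the median moves from -0.78 with 8 filled points to -1.06 with 19, for cholesterol synthesis from -0.68 with 8 to -0.77 with 11, and for nuclear oxidative phosphorylation from -0.22 to -0.01 with 0 in either.

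Among genes called only without mouse 3, with no overlap between the 3 treated and 4 vehicle mice, the largest rises were in Ces4a, Gm32540, E2f8, B3galt1 and Nrp1 and the largest falls in Thrsp, Gm35986, Noct, Lipg and Gm36936. E2f8, a repressor of the cell cycle that is high in polyploid hepatocytes, had 2.67, 4.53, 5.24 and 4.65 CPM in vehicle and 17.04, 9.398, 15.2 and 8.36 in treated mice (log2 fold change 1.55, adjusted p = 0.11, and 1.45, adjusted p = 0.0824, without mouse 3). Nrp1, a co-receptor for VEGF and semaphorins, had 49.8, 56.5, 57.7 and 66.5 CPM against 180.0, 73.3, 38.2 and 157 (log2 fold change 0.96, adjusted p = 0.421, and 1.26, adjusted p = 0.0274, without mouse 3), with mouse 3 the lowest of the 8. Noct, a clock-controlled phosphatase of NADPH, had 37.2, 59.9, 35.6 and 58.1 against 12, 16.4, 32.4 and 7.81 (log2 fold change -1.48, adjusted p = 0.169, and -1.98, adjusted p = 0.0132). Lipg, endothelial lipase, had 19.6, 27.2, 15.5 and 26.1 against 6.74, 11.2, 54.9 and 3.33, and mouse 3 was the highest of the 8 (log2 fold change -0.21, adjusted p = 0.969, and -1.64, adjusted p = 0.0879). Ces4a had a log2 fold change of 1.74 (adjusted p = 0.0709), B3galt1 1.29 (adjusted p = 0.00827), Gm32540 1.62 (adjusted p = 0.0717), Gm35986 -2.12 (adjusted p = 0.00299) and Gm36936 -1.55 (adjusted p = 0.0871) without mouse 3.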

How the data were processed

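Liver RNA from 12 mice (4 healthy, 4 STAM-vehicle and 4 STAM-I-BET151, grouped by the labels) was sequenced from stranded poly-A libraries. The authors aligned reads with STAR 2.5.1b and deposited raw read counts per gene for each mouse. The methods give uniquely mapped reads as the input to counting. The counter is htseq-count in the methods and featureCounts in the files, and the annotation release and strand setting are not given in the sources used here. Symbols came from GENCODE M21 (GRCm38), which matched 47310 of 47729 identifiers.

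Genes passing filterByExpr (minimum count 10) were tested with edgeR 4.0.16 in R 4.3.3: TMM scaling, 1 quasi-likelihood fit of 3 groups over 12 mice, contrast I-BET151 minus vehicle, Benjamini-Hochberg adjustment over all genes and a threshold of 0.1. Of the called genes, Hist1h4k, Hist1h4m and Scn2a passed that filter only through the group in which they were higher. Standard errors are the log2 fold change divided by the root of F. Mean log2 CPM used a prior count of 2. Alternatives were DESeq2 1.42.0, limma 3.58.1 (voom with sample weights), other scaling, filters, sample sets and covariates, and each mouse left out. The STAM mice without I-BET151 mouse 3 were added after seeing the data. The 53 gene lists and the genes compared were chosen with earlier results of these data known. Named genes were the 10 largest called increases and decreases with an average log2 CPM of at least 0 and no overlap between groups, genes that the study names, up to 4 called members per list (or the 2 of lowest p), the 5 largest in each direction among those called only without mouse 3, and the BET genes with Hexim1. Other list members and called genes given as examples were chosen after their values were seen. With replicate numbers, same-numbered mice did not deviate together (correlations from -0.228 to 0.0933), so no pairing was used. The self-test on simulated counts for all mice (16798 genes) recovered 3.03%, 67.16% and 95.52% of changes of 0.5, 1 and 2 on the log2 scale, and 14.62% of calls were false (31.67% with DESeq2). Changes were placed only in genes above a count floor, so recovery in low-count genes was not measured. All mice were simulated from a common profile, without the composition of mouse 3 or an effect of lane. Counting precision was set by totals of 34711229 to 53365596 per STAM mouse. Figures were drawn with Matplotlib 3.10.9. A few genes that these rules name are not reported here. Histology was not analysed here.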

Additional observations from a re-analysis of the deposited data

Results flagged for a closer look

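In 35 of 262 groups of 4 mice, the highest or lowest mouse lay far from the other 3 of its group for its range. Independent, normally distributed values would give such a distance in about 1 of 20 groups. These groups share their mice, and the values are not on a log scale. Lipg and Gm35986 were also named because they were called only without I-BET151 mouse 3. The 35 can therefore not be set against that rate. The values are CPM of the mouse named, against the range of the other 3, and causes were not tested.

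I-BET151 mouse 3 accounted for 12 of them. Its 10 largest genes took 7.95% of reads against 16.4% to 17.6%, its TMM factor was 1.61 against 0.944 to 1.04 and nuclear-retained RNAs took 0.783% against 0.111% to 0.164%. The genes were Alb 12570 against 52510 to 60650, Arntl2 8.07 against 2.89 to 3.24, Brd2 280 against 113 to 140, Brd3 80.6 against 42.5 to 48.1, C9 52.2 against 192 to 211, Gm35986 1.58 against 0.241 to 0.378, Lipg 54.9 against 3.33 to 11.2, Mettl27 30.1 against 21.3 to 22.6 and Snhg11 74.6 against 23.9 to 32.3. Alb and C9 were low in it, the rest high, and Arntl2 and Mettl27 were among the genes that rose.

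In I-BET151 mouse 4 they were Col4a2 104 against 76.9 to 78.7, Idi1 2.44 against 7.76 to 8.64, Npas2 1.84 against 0.520 to 0.723, Saa1 1840 against 9.74 to 308 and Saa2 1237 against 4.03 to 131, of which Idi1 was among the genes that fell. In I-BET151 mouse 2 they were Acot1 157 against 77.0 to 80.5, Tlr9 0.633 against 0.988 to 1.04, mt-Atp6 22.7 against 0.771 to 3.58 and mt-Co2 18.4 against 0.592 to 2.96.

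In vehicle mouse 3 they were Bax 24.6 against 19.5 to 19.5, Cps1 4763 against 6942 to 7367, Gpnmb 12.4 against 3.77 to 4.57, Ifi206 4.12 against 2.21 to 2.504, Jchain 2.36 against 0.594 to 0.721, Lipc 61.5 against 82.8 to 87.0, Mcm7 10.8 against 12.7 to 12.8, Retnlg 0.890 against 0.240 to 0.255, S100a9 2.79 against 0.705 to 0.912 and Slco1a1 4.97 against 35.0 to 36.9. In vehicle mouse 1 they were Gm36936 2.57 against 1.41 to 1.60, Thbs1 3.65 against 6.13 to 6.51 and Tlr9 0.673 against 1.10 to 1.16, and its mitochondrial share was 6.44% against 5.83% to 5.93%.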

How the results depend on the processing

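The number of genes higher and lower (16 and 43 with all mice) was 94 and 174 with DESeq2, 637 and 651 with DESeq2 without I-BET151 mouse 3, 520 and 685 with limma-voom sample weights (weight of mouse 3 0.0749), 27 and 74 with no filter on low counts, 2 and 6 with the 8 STAM mice, 67 and 182 with the STAM mice without I-BET151 mouse 3, 7 and 19 at an adjusted p of 0.05, and 0 and 0 with lane as a covariate. With RLE scaling it was 15 and 40, and 17 and 45 with a minimum of 10 counts per mouse. Leaving out 1 mouse gave 2 to 155 higher and 10 to 248 lower, with the highest numbers without I-BET151 mouse 3, 32 and 71 without I-BET151 mouse 2, and the lowest without vehicle mouse 4 (2 and 11) and I-BET151 mouse 1 (3 and 10). A fit with a replicate block gave 2 and 8, 10 of the 59 calls among them. The cause of these differences was not tested. Of the 59 called genes, limma-voom kept 59, the STAM mice without mouse 3 kept 55 and the 8 STAM mice 7. Over the alternatives, values of the 32 named genes that were called kept their direction, with 510 on the same side of the threshold and 192 no longer past it. For the fits that left out a mouse this direction was largely fixed beforehand, as the groups did not overlap in these genes.

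Genes that were not called reversed in 47 of the values. With DESeq2 without mouse 3, limma-voom and the STAM mice without mouse 3 the log2 fold changes of Acta2 were -0.48, -0.22 and -0.47 (-0.029 with the replicate block), of Brd2 -0.21, -0.21 and -0.23, of Retnlg 0.16, 0.66 and 0.16 and of S100a9 0.21, 0.69 and 0.21. Brd3 had -0.0022 with the STAM mice without mouse 3. With limma-voom, Cd5l had 0.047, Gpnmb 0.28 and Hbb-bs 0.59. With lane as a covariate, Alb had -0.31, Cela1 -0.034, Clec4g 0.016, Gpnmb 0.061, Timp1 0.031, Tlr9 0.081, mt-Atp6 -0.31 and mt-Co2 -0.41. Leaving out 1 mouse gave -0.46 to 0.35 for Acta2, -0.043 to 0.45 for Alb, -0.22 to 0.30 for Brd2, -0.069 to 0.24 for Cela1, -0.39 to 0.38 for Gpnmb, -0.93 to 0.24 for Hbb-bs, -0.62 to 0.32 for Jchain, -1.64 to 0.14 for Lipg, -0.57 to 0.58 for Retnlg, -0.57 to 0.54 for S100a9, -0.35 to 0.15 for Timp1, -0.20 to 1.93 for mt-Atp6 and -0.29 to 1.74 for mt-Co2.

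In the self-test 3.03% of changes of 0.5 on the log2 scale were recovered, and the part of depth in this was not tested.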

Other observations

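Set beside the 4 healthy mice, the called genes took different positions. For 14 of the 16 genes that rose the I-BET151 mean lay above the highest healthy mouse, and of these 14 the vehicle mean lay above it too in 9, within the healthy range in 4 and below it in 1. For Dlc1 the I-BET151 mean lay below the lowest and for Gm15441 within the healthy range. Of the 43 that fell, the I-BET151 mean lay below the lowest healthy mouse in 27, within the healthy range in 11 and above the highest healthy mouse in 5 (9330159M07Rik, Apol9a, Ifi27, Scn2a and Usp18). In the 27, the vehicle mean lay above the healthy range in 11, within it in 14 and below it in 2. In all others that fell the vehicle mean lay above the healthy range. After I-BET151, the interferon-induced genes Rsad2, Isg15, Irf7, Rtp4, Ifit3b, Ifi206, Apol9b and Cxcl9 were among those within the healthy range, and Ifit1, Cmpk2 and Tgtp1 lay below it. Of the 8 called enzymes of cholesterol synthesis Mvd was within the healthy range and the other 7 below it. The healthy mice had received neither streptozotocin nor the diet, and these positions were not tested.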
